A study of Homo sapiens with 4 samples.

Results

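The zinc finger genes of chromosome 19p12 form a tandem array near the centromere of human chromosome 19. ZNF101, ZNF14 and ZNF506 lie at its end away from the centromere, and whether they fall in band p12 itself was not checked here. The genes were taken by symbol from a list of 34, and where a gene had several probe sets, the one brightest on average stood for it. Of the 34 genes, 26 had a probe set that named them alone, out of 19775 genes with such a probe set on the array. ZNF66, ZNF98, ZNF676, ZNF714, ZNF724, ZNF726, ZNF730 and ZNF737 were not analysed here. Of the 26 measured genes, 20 passed the filter on low values, which kept genes whose mean reached 4.85 on the log2 scale. ZNF90, ZNF99, ZNF208, ZNF257, ZNF486 and ZNF492 lay under it.

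Most genes of this array encode proteins with a KRAB domain followed by a long run of zinc fingers that read DNA. The KRAB domain recruits the corepressor TRIM28, which brings in the histone methyltransferase SETDB1 and HP1 proteins and places H3K9 methylation at the bound site, often a retrotransposon. ZNF91 and ZNF93 are known for holding down SVA and LINE elements in this way. The array grew by repeated duplication in primates, so its genes resemble each other closely. DAXX and its partner ATRX deposit histone H3.3 in silent chromatin, and ATRX is known to sit at the exons that encode the zinc fingers.

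The 4 arrays came from cells of 2 human neuroendocrine tumour lines given siRNA by electroporation at a final 50 nM, with 1 array per line and treatment. By their titles, 1 array of QGP1, a line from the pancreas, and 1 array of NCI-H727, a line from the bronchus, had siRNA against DAXX (DAXX-KD), and 1 of each had a universal negative control siRNA. The labels name 2 DAXX siRNAs without saying whether they were pooled, and no repeat culture is mentioned. The question was which genes depend on DAXX, and the difference between the lines comes from the same arrays.

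The titles were the basis for the line names, since other label fields of the NCI-H727 samples name QGP1. NKX2-1, a lung and thyroid transcription factor, was at 8.77 and 8.38 (control and DAXX-KD) in the arrays titled QGP1, and at 3.35 and 3.23, under the filter level, in those titled NCI-H727. NKX2-2, an islet transcription factor, ran the other way, at 4.80 and 5.93 against 9.17 and 9.25. GRP, the gastrin-releasing peptide of lung neuroendocrine cells, was at 12.8 and 11.8 against 5.37 and 4.12. These 3 markers lie opposite to the tissues the titles give. Of the 5 lung neuroendocrine genes past the filter, limma called NKX2-1 and GRP lower in the arrays titled NCI-H727 and 0 higher. CALCA, SFTPB and FOXA2 were not called, with limma coefficients of -0.23, 0.04 and 0.20. Other islet genes were higher in the arrays titled QGP1, as the titles would have it: SST, somatostatin, at 13.8 and 13.1 against 11.9 and 11.8, PAX6 at 6.64 and 6.78 against 5.12 and 5.67, and ISL1 at 9.61 and 9.46 against 8.82 and 8.94. Of the 5 islet genes past the filter, limma called these 3 lower and NKX2-2 higher in the arrays titled NCI-H727. The markers thus point both ways, and the lines are called QGP1-labelled and NCI-H727-labelled throughout, and a direction between lines is a direction between labels.

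All 4 arrays carried neuroendocrine signal: 10 or 11 of 11 measured neuroendocrine markers were above the filter level in every array, CHGA between 11.1 and 12.3. Of 8 measured islet markers 4 or 5 were above it, with summed log2 levels of 51.1 and 51.4 (control and DAXX-KD) in QGP1-labelled and 51.7 and 52.6 in NCI-H727-labelled arrays. INS and GCG, the insulin and glucagon genes, were under the filter level on every array. Of 6 measured lung neuroendocrine markers 5 were above it in both QGP1-labelled arrays, and 4 and 3 in the NCI-H727-labelled ones. Their summed log2 levels were 56.97 and 55.1 against 43.65 and 42.22. Of 4 measured pancreatic exocrine markers 1 was above the filter level on each array, with summed log2 levels of 15.3 and 15.4 in QGP1-labelled and 16.4 and 16.2 in NCI-H727-labelled arrays. Of 9 fibroblast and endothelial markers 5 were above it, with sums of 43.8 and 44.7 against 45.1 and 45.9. Of 5 leukocyte markers 2 were above it in QGP1-labelled and 3 in NCI-H727-labelled arrays, with sums of 24.2 and 23.6 against 26.5 and 27.2; LYZ was 8.80 and 8.90 in NCI-H727-labelled and 6.85 and 7.04 in QGP1-labelled arrays. The part of other cell types in the differences below was not tested.

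The start regions of the genes show how alike they are. RefSeq (GRCh38.p14) gave a start region of 300 bases, 250 before and 50 after the transcription start, for 28 of the 34 genes, 22 of them measured. The search over all 8-letter words on both strands found TCCAATCA in 28 of 28 genes, against 1.54% of 35116 start regions of all genes (542). CCAATCAG was in all 28 as well and overlaps it by 7 letters. Both contain CCAAT, the core of the CCAAT box to which the factor NF-Y binds, which was in 34.6% of all start regions. Among other ZNF genes, 19 of 179 on chromosome 19 and 17 of 209 on other chromosomes had TCCAATCA. The word was picked because the genes share it, so its count is a description.

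Start regions of 4 genes are printed in lower case, 5′ to 3′ on the strand of the gene, with TCCAATCA in capitals. ZNF85 and ZNF626 had the 2 widest differences between lines, ZNF91 was among the modest ones, and ZNF429 was the 1 gene past the filter that was not higher in NCI-H727-labelled cells. ZNF85 lies at chr19:20923001-20923300 on the plus strand, ZNF626 at chr19:20661522-20661821 on the minus strand, ZNF91 at chr19:23395422-23395721 on the minus strand and ZNF429 at chr19:21505352-21505651 on the plus strand.
ZNF85: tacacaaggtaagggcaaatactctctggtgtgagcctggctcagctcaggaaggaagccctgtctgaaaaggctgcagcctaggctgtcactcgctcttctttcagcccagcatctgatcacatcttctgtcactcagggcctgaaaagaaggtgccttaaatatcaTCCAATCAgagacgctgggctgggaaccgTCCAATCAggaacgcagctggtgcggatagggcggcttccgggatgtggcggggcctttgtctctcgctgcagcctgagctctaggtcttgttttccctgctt
ZNF626: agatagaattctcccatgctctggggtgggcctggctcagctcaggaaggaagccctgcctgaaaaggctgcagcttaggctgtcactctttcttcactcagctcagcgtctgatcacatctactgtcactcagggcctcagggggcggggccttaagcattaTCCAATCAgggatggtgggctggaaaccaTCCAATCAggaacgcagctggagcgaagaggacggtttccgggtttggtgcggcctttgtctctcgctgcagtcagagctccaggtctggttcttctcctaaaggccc
ZNF91: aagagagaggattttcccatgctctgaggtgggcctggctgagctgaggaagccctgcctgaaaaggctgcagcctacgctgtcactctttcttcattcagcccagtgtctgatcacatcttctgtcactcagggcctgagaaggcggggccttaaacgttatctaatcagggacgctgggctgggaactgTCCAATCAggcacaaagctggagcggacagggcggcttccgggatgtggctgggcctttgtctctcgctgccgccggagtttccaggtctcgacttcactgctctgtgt
ZNF429: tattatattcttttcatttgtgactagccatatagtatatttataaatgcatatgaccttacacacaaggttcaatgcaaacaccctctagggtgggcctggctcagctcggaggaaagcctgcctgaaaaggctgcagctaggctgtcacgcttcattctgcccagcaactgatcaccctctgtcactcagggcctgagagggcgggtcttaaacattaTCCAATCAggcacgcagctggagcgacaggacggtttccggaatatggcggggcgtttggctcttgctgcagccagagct
Counted from the transcription start, the word began at -82 and -53 in ZNF85 and at -87 and -58 in ZNF626. It occurred 1 time in ZNF91, at -59, and 1 time in ZNF429, at -30.

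The other genes held the word too, and most of their start regions were close to that of ZNF85, though not all. 15 of the 28 genes held the word 2 times and 13 held it 1 time. Aligned to ZNF85, the other genes (ZNF682 by the closer of its 2 entries) had identities from 50.7% (ZNF14) to 82.3% (ZNF208), with a median of 78.6%. ZNF101, ZNF429 and ZNF708 were low as well, at 52.6%, 57.0% and 58.1%. The farther ZNF682 entry, which lacks the word, had 52.6%. The identity that unrelated start regions reach was not measured, so likeness of ZNF14 and ZNF101 to ZNF85 beyond the word is not shown. GGGCGG, the GC box that SP1-type factors bind, was in 21 of 28 against 44.9% of all start regions, and TATAAA in 3 of 28 against 11.5%. Other ZNF genes also held GGGCGG often, in 121 of 179 on chromosome 19 and 134 of 209 on other chromosomes. TATAAA was in 3 and 16 of them. The number of CG pairs per region ran from 8 to 18 with a median of 10, against a median of 14 over all start regions.

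The widest measurement in these genes was the difference between the lines, which ran 1 way. Of the 26 measured genes, 22 were higher in the NCI-H727-labelled array in both the control pair and the DAXX-KD pair, where 43.1% of all 19775 genes were. ZNF429 and ZNF99 were lower in both pairs (34.3% of all genes), and ZNF90 and ZNF208 had opposite signs in the 2 pairs. 12 of the 26 were at least 2-fold higher in both pairs, against 7.18% of all genes, and 0 were at least 2-fold lower in both, against 7.57%. The median difference over the 26 genes was 1.10 on the log2 scale, against 0.06 over all genes. These counts use 1 array per line and treatment and carry no test, and in such bulk RNA fewer cells of a type and less RNA per cell cannot be told apart.

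**Figure D1:**
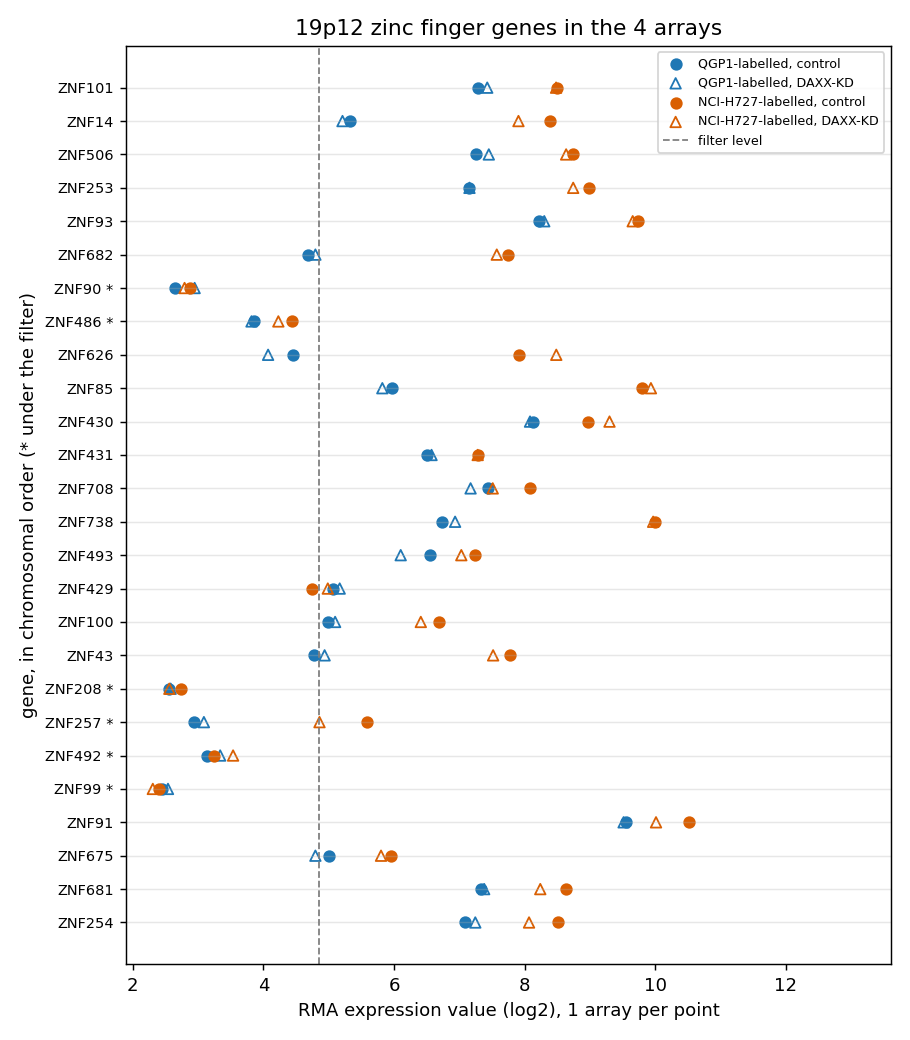
RMA expression values (log2, horizontal axis) of the 26 measured genes in chromosomal order, 1 point per array, with QGP1-labelled arrays in blue, NCI-H727-labelled arrays in orange, control arrays as filled circles and DAXX-KD arrays as open triangles. Asterisks mark genes under the filter and the dashed line is the filter level of 4.85. For most genes both orange points lie to the right of both blue points, farthest for ZNF85 and ZNF626.

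The limma fit over all 4 arrays, with treatment as a covariate, gave each gene a line coefficient, its standard error (SE) and a two-sided p adjusted by Benjamini-Hochberg over the 14648 genes past the filter. It called 19 of the 20 cluster genes past the filter higher in NCI-H727-labelled cells and 0 lower, where 23.2% of all genes past the filter were called higher and 25.1% lower. ZNF682 and ZNF626 passed the filter through the NCI-H727-labelled arrays alone, and ZNF43 nearly so, with 1 QGP1-labelled array above the level; a gene that passes in this way had to differ. With the filter set on the mean of the QGP1-labelled arrays, chosen after the data were seen, 17 genes were left and 16 were called. The share of all genes called under that filter was not counted. Without any filter, 20 of 26 were called higher against 17.6% of all genes, and 0 lower against 18.6%. The fit has 1 residual degree of freedom. Its p-values rest on how far the control pair and the DAXX-KD pair disagreed on the line difference, with the spread shared over genes. That disagreement may be otherwise technical, and no spread between repeat cultures entered it.

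ZNF85 had the largest coefficient. Its values were 5.97 and 5.82 (control and DAXX-KD) in QGP1-labelled arrays and 9.80 and 9.93 in NCI-H727-labelled arrays. The NCI-H727-labelled arrays were thus 14.2-fold higher in the control pair and 17.3-fold higher in the DAXX-KD pair, and the limma coefficient was 3.97 (SE 0.14, adjusted p = 3.97e-05, higher in 2 of 2 pairs). A second ZNF85 probe set, without the x suffix that marks possible binding of other transcripts, read 3.40 and 3.599 against 8.34 and 8.47.

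ZNF626, next to ZNF85 among the measured genes of the array, was close to the background level in QGP1-labelled cells. It read 4.45 and 4.07 there, both under the filter level, and 7.91 and 8.48 in NCI-H727-labelled arrays. The limma coefficient was 3.93 (SE 0.25, adjusted p = 0.000231); no fold is given, since RMA compresses differences near background. The other ZNF626 probe sets differed in the same direction by less, 1 by 0.26 and 0.29 in the 2 pairs and 1 by 1.73 and 1.15.

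ZNF738, ZNF682, ZNF14 and ZNF43 were the other genes with coefficients over 2. ZNF738 read 6.74 and 6.93 in QGP1-labelled and 9.997 and 9.97 in NCI-H727-labelled arrays, 9.57-fold and 8.18-fold higher (limma coefficient 3.15, SE 0.14, adjusted p = 7.1e-05). ZNF14, near the edge of the array, read 5.32 and 5.21 against 8.39 and 7.90, or 8.38-fold and 6.47-fold (2.88, SE 0.15, limma adjusted p = 0.00013). In both genes, which were named for their wide line differences, the 2 arrays of a line lay far closer to each other than to the other line.

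ZNF682 read 4.69 and 4.79, both under the filter level, against 7.74 and 7.57 (limma coefficient 2.91, SE 0.14, adjusted p = 9.91e-05). ZNF43 read 4.77 and 4.94 against 7.77 and 7.52 (2.79, SE 0.16, limma adjusted p = 0.000161). Of the genes under the filter, ZNF257 had the same pattern, at 2.94 and 3.09 against 5.58 and 4.86, and the fit without a filter called it (2.20, limma adjusted p = 0.00231). For these 3 genes the size of the difference is uncertain because the lower line sat at or under the filter level.

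A second set of genes was 2-fold to 4-fold higher in NCI-H727-labelled cells. ZNF253 read 7.15 and 7.15 against 8.99 and 8.74, 3.58-fold in the control pair and 3.01-fold in the DAXX-KD pair. ZNF100 read 4.995 and 5.10 against 6.68 and 6.41, 3.22-fold and 2.48-fold. ZNF93, the repressor of LINE elements, read 8.23 and 8.30 against 9.74 and 9.65, 2.86-fold and 2.56-fold. Each of these 3 genes was named for its difference in both pairs, and each was called in limma with an adjusted p of 0.000541, 0.00113 and 0.000841, in the order given.

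ZNF506 read 7.25 and 7.45 against 8.74 and 8.63, 2.81-fold and 2.27-fold (limma coefficient 1.34, SE 0.14, adjusted p = 0.0014). ZNF101 read 7.29 and 7.43 against 8.49 and 8.48, 2.31-fold and 2.08-fold (1.13, SE 0.13, limma adjusted p = 0.00181). These completed the 11 genes past the filter that were at least 2-fold higher in both pairs, against 9.13% of all genes past it. Of the 11, ZNF682, ZNF626 and ZNF43 had a QGP1-labelled mean under the filter level, so they had to differ to pass. Among the 17 genes with that mean at or above the level, 8 were at least 2-fold higher in both pairs. The share of all genes under that rule was not counted. At least 2-fold lower in both pairs were 0 of the 20, against 9.62%.

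**Figure D2:**
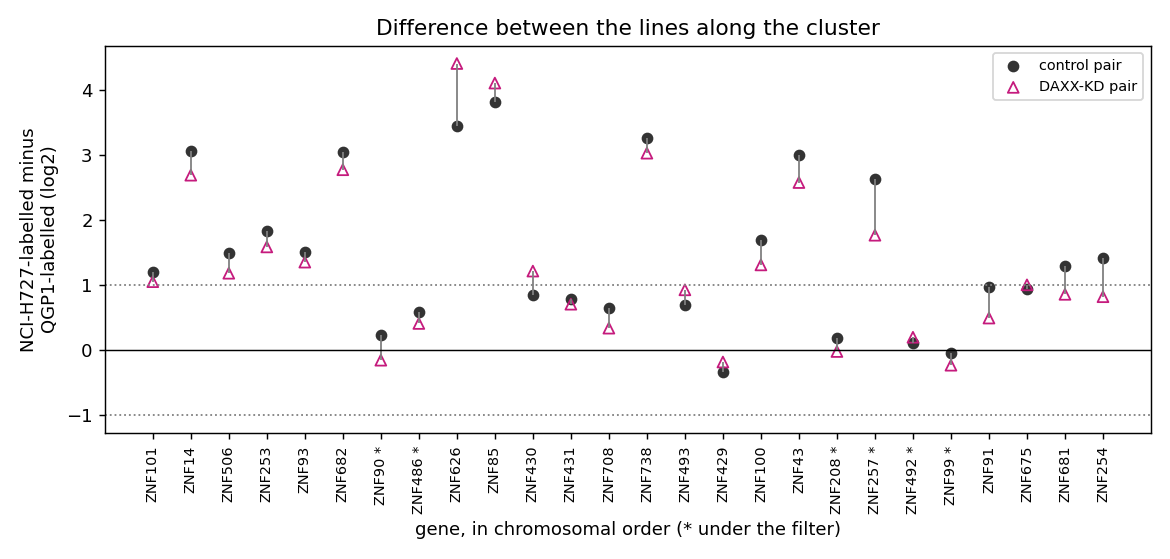
Difference NCI-H727-labelled minus QGP1-labelled (log2, vertical axis) of the 26 measured genes in chromosomal order (horizontal axis, not to distance), with the control pair as filled circles and the DAXX-KD pair as open triangles. Dotted lines mark a 2-fold difference, and asterisks mark genes under the filter. Wide differences (ZNF14, ZNF682, ZNF626, ZNF85, ZNF738, ZNF43) are spread along the array, and ZNF429 and ZNF99 lie below 0 in both pairs.

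Smaller differences made up the rest of the called genes. ZNF91, the repressor of SVA elements, read 9.54 and 9.51 in QGP1-labelled and 10.52 and 10.01 in NCI-H727-labelled arrays (limma coefficient 0.73, SE 0.16, adjusted p = 0.0167). Its next brightest probe set was higher by 1.98 and 1.91 in the 2 pairs, while a dimmer one, at 5.10 and 5.15 against 5.17 and 5.07, hardly differed. ZNF675, an inhibitor of TRAF6 signalling, read 5.001 and 4.79 against 5.95 and 5.80 (0.98, SE 0.13, limma adjusted p = 0.00267). ZNF430, among the 5 genes with the highest means, read 8.12 and 8.08 against 8.97 and 9.30. ZNF254, ZNF681, ZNF430, ZNF493 and ZNF431 had limma coefficients of 1.12, 1.08, 1.04, 0.81 and 0.74, with adjusted p-values between 0.00377 and 0.00677. Among the genes called, ZNF708 had the smallest coefficient, 0.49 (SE 0.14, limma adjusted p = 0.0387), and it was not called without a filter (adjusted p = 0.0526).

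ZNF429 was the exception past the filter. It read 5.07 and 5.17 in QGP1-labelled and 4.74 and 4.98 in NCI-H727-labelled arrays (limma coefficient -0.26, SE 0.13, adjusted p = 0.164), which did not pass. ZNF90, ZNF99, ZNF208 and ZNF492 were between 2.31 and 3.54 on every array, under the filter level, and none of the 4 was called in the limma fit without a filter (adjusted p from 0.411 to 0.866). ZNF486 read 3.85 and 3.82 against 4.44 and 4.23, also under that level, and the fit without a filter called it higher (0.50, limma adjusted p = 0.0393). At such values a difference between lines was not detectable or only in part.

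Probe sets of the same gene mostly shared the direction, less so the size. Over all genes, line differences of probe sets for the same gene had an SD of 0.67. That is above the coefficient of ZNF708 (0.49) and near those of ZNF91 (0.73) and ZNF431 (0.74). Of the 58 probe sets of the 26 genes, which include the 26 chosen ones, 48 were higher in NCI-H727-labelled arrays in both pairs and 3 were lower in both. Of the 38 probe sets with a mean at or above the filter level, 36 were higher in both pairs. The shares over all probe sets were not counted. ZNF681, ZNF91 and ZNF93 each had another probe set with a difference on the other side of 0, at -0.07, -0.01 and -0.002. 12 of the 26 chosen probe sets carry the x or s suffix, and duplicated genes of this kind can bind each other's probes, so the genes are not separate measurements.

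Along the chromosome, genes with wide differences were spread over the array. ZNF626 (3.93) and ZNF85 (3.97) were neighbours among the measured genes, while ZNF738 (3.15) sat between ZNF708 (0.49) and ZNF493 (0.81). The RefSeq order of genes also gave the neighbours that are not on the list, a comparison chosen after the data were seen. Of 13 such measured genes inside the array, noncoding RNAs and pseudogenes, 8 were higher in both pairs (43.1% of all genes), with a median of 0.24. The ZNF pseudogene ZNF826P was the farthest of them, at 3.05 and 2.94 against 9.52 and 10.1. LINC01224 was the lowest, at 6.15 and 6.09 against 5.22 and 5.26 (-0.88, limma adjusted p = 0.00388, lower in 2 of 2 pairs).

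The genes on the 2 flanks had different medians, with no test of the difference. The 10 nearest measured genes before ZNF101, by order and at any distance, had a median of 0.17. Of these, 0 were at least 2-fold higher in both pairs (7.18% of all genes). The 10 nearest after ZNF254 had a median of 0.82 with 5 at least 2-fold higher in both pairs. The array ends near the centromere, and whether these genes lie across it, on the other arm, was not checked here. The 5 were LINC00662, LINC02987, POP4, C19orf12 and CCNE1. C19orf12 differed most, at 7.79 and 7.09 against 9.49 and 8.74. CCNE1, cyclin E, was at 8.09 and 8.41 against 9.54 and 9.52, and POP4, an RNase P subunit, was at 10.4 and 10.3 against 11.4 and 11.5.

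Other ZNF genes gave a reference for the cluster. Of 208 other measured ZNF genes on chromosome 19 (genes whose symbol starts with ZNF, antisense RNAs included), 117 were higher in NCI-H727-labelled arrays in both pairs, 35 were at least 2-fold higher in both, and the median difference was 0.21. This list holds ZNF826P and ZNF276-AS1, which lie inside the array; without these 2, left out after the data were seen, 115 of 206 were higher in both pairs, 34 at least 2-fold, and the median was 0.20. Of 269 on other chromosomes, 76 were higher in both pairs, 7 at least 2-fold higher in both, and the median was -0.12. The shares at least 2-fold higher in both pairs were 46.2% in the 19p12 genes, 16.8% in the other genes of chromosome 19 and 2.6% on other chromosomes. The difference between these lists was not tested.

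**Figure D3:**
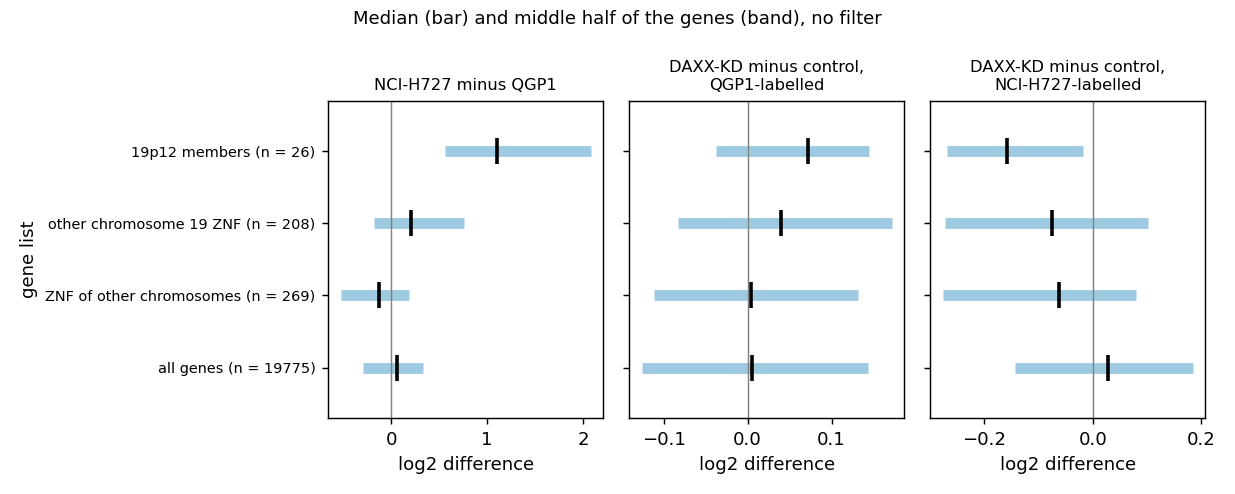
Median (black bar) and lower to upper quartile of the genes (blue band) of the log2 difference in 4 gene lists, without a filter, for NCI-H727-labelled minus QGP1-labelled (left), and DAXX-KD minus control in QGP1-labelled (middle) and NCI-H727-labelled (right) arrays; the panels have different horizontal scales. The 19p12 genes have a median of 1.10 on the left against 0.06 for all genes, and knockdown medians of 0.07 and -0.16.

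The targeted gene, DAXX, was lower after its siRNA in either line, from 8.52 to 6.56 in QGP1-labelled (3.90-fold) and from 7.35 to 6.14 in NCI-H727-labelled cells (2.31-fold), and a second DAXX probe set was lower in both too. The cluster genes differed little, as did most genes. Their counts past a fold, given next, lie near the small shares over all genes and do not set the cluster apart. By the chosen probe sets, 0 of the 26 measured genes were 2-fold higher or lower in DAXX-KD cells of either line. Over all genes the shares were 0.253% higher and 0.192% lower in QGP1-labelled, and 0.142% and 1.05% in NCI-H727-labelled cells. At 1.5-fold there were 0 in QGP1-labelled arrays, against 1.71% of all genes higher and 1.29% lower, and 1 in NCI-H727-labelled arrays, against 1.57% higher and 3.94% lower. That gene was ZNF257, which went from 5.58 to 4.86, the last at the filter level. Among the 20 genes past the filter the counts at 1.5-fold were 0 in each line and direction. Over all genes past it, 1.74% were higher and 1.32% lower in QGP1-labelled, and 1.6% and 4.96% in NCI-H727-labelled cells. Dimmer probe sets went farther in NCI-H727-labelled cells. Those of ZNF493 and ZNF738 were past 2-fold lower, by -1.38 and -1.29, and those of ZNF626 and ZNF682 differed by -0.79 and -0.76. Those of ZNF93 and ZNF254 were higher, by 0.65 and 0.59. In QGP1-labelled cells the ZNF93 one was higher by 0.75.

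The signs of these small knockdown differences were counted in each line. In NCI-H727-labelled cells 21 of the 26 genes were below control in the DAXX-KD array, against 44.7% of all genes, with a median of -0.16 against 0.03. In QGP1-labelled cells 17 of 26 were above control, against 50.9%, with a median of 0.07 against 0.005. For the genes past the filter this median was 0.06 against 0.02 over all genes, and after a second quantile normalization it was 0.0079 against 0.0075, so no excess over all genes was left in QGP1-labelled cells. 15 genes were above control in QGP1-labelled and below it in NCI-H727-labelled cells, 6 were below in both and 2 (ZNF429 and ZNF492) above in both. The shares of all genes with these sign patterns were not counted. The other ZNF genes of chromosome 19 and those of other chromosomes had medians of -0.07 and -0.06 in NCI-H727-labelled cells, and 134 of 208 and 169 of 269 were below control there. Knockdown differences of probe sets for the same gene, over all genes, had an SD of 0.202 in QGP1-labelled and 0.275 in NCI-H727-labelled arrays. These SDs describe single probe sets, so they do not gauge the cluster medians of 0.07 and -0.16, which are over 26 genes.

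**Figure D4:**
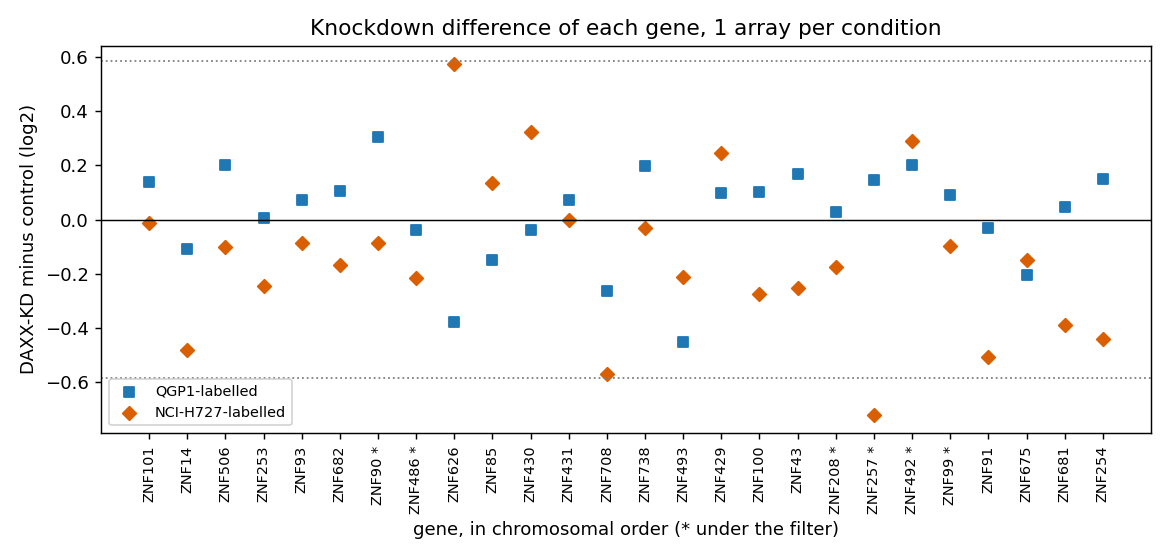
DAXX-KD minus control (log2, vertical axis) of each of the 26 measured genes in chromosomal order, 1 array per condition, with QGP1-labelled as blue squares and NCI-H727-labelled as orange diamonds; dotted lines mark 1.5-fold and asterisks genes under the filter. All points but ZNF257 in NCI-H727-labelled arrays lie within 1.5-fold, and 21 of the 26 diamonds lie below 0.

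The joint limma fit of the knockdown with cell line as a block called 0 of the 20 genes past the filter, and 0 of all 14648. Over all genes it called 2 with loess centring and 5 with an intensity trend in the prior, none of them in the cluster. At an unadjusted p under 0.05 it had 1 cluster gene lower (ZNF708) and 0 higher, against 604 genes lower (4.12%) and 410 higher (2.8%) in all. ZNF708 went from 7.43 to 7.17 in QGP1-labelled and from 8.08 to 7.51 in NCI-H727-labelled cells (-0.42, SE 0.14, limma adjusted p = 0.661, lower in 2 of 2 lines). ZNF493 was lower in both too, from 6.55 to 6.10 and from 7.24 to 7.03 (-0.33, SE 0.14, limma adjusted p = 0.743). Another ZNF493 probe set gave the opposite sign in QGP1-labelled cells, at 0.29, and went from 6.77 to 5.39 in NCI-H727-labelled cells.

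In NCI-H727-labelled cells ZNF91 went from 10.52 to 10.01 and its next brightest probe set differed by -0.31 in DAXX-KD cells, while in QGP1-labelled cells it was at 9.54 and 9.51. Of its 5 remaining probe sets, 3 dim ones were above control in the NCI-H727-labelled DAXX-KD array, by 0.07 to 0.23. ZNF14 went from 8.39 to 7.90 and ZNF254 from 8.51 to 8.07 there, and another ZNF254 probe set went the other way, from 7.25 to 7.85. ZNF681 differed by -0.39 there, and its dim second probe set by 0.28. ZNF626 differed by -0.38 in QGP1-labelled cells, between values under the filter level, and by 0.58 in NCI-H727-labelled cells. ZNF675 (-0.21) and ZNF506 (0.20) completed the 5 largest differences of QGP1-labelled cells past the filter. None of these knockdown differences passed in limma.

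ZNF93 depended on the probe set. The chosen one differed by 0.07 in QGP1-labelled and -0.09 in NCI-H727-labelled cells. Another went from 6.06 to 6.80 and from 6.41 to 7.06, 0.75 and 0.65 higher in DAXX-KD cells. A further dim one differed by 0.29 and 0.36, and the fourth by 0.03 and -0.13. With probe sets of the x and s suffix left out, the second one stood for the gene. Probe sets of 1 gene can read different transcript ends or introns, and which parts of ZNF93 these cover was not analysed here.

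The silencing machinery that these proteins use, together with related chromatin genes, was measured through a list of 38 genes. Of these, 37 had a probe set and all 37 passed the filter. In limma 4 were called higher in NCI-H727-labelled cells and 15 lower (23.2% and 25.1% of all genes past the filter). TRIM28, the KRAB corepressor, was 8.51 and 8.46 in QGP1-labelled against 9.29 and 9.33 (limma coefficient 0.83, SE 0.13, adjusted p = 0.00477). HDAC1, RBBP7 and ADNP were the other 3 called higher, at 0.88, 0.54 and 0.53.

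SETDB1, the methyltransferase, was 7.74 and 7.80 against 7.17 and 7.24 (-0.56, SE 0.13, limma adjusted p = 0.0167). ATRX was 9.74 and 9.59 against 8.34 and 7.74 (-1.62, SE 0.16, limma adjusted p = 0.00106), the most negative coefficient of the list. The HP1 genes CBX1 and CBX3 had coefficients of -0.81 and -0.73. DNA methyltransferases DNMT3B and DNMT3A had -1.39 and -0.99, and the remodellers SMARCAD1, CHD3, HELLS and CHD4 had -1.20, -0.87, -0.60 and -0.50. ZNF274, a KRAB zinc finger protein that itself binds zinc finger genes, had -1.19. KDM4A, DAXX, RBBP4 and H3-3A, at -0.86, -0.79, -0.52 and -0.48, completed the 15 called lower. DAXX, the siRNA target, differed by -1.17 in the control pair and -0.41 in the DAXX-KD pair, so its coefficient averages unlike values.

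In the knockdown comparison 0 of the 37 silencing genes were called in limma, DAXX included (adjusted p = 0.374). Besides DAXX, the 1 gene past 1.5-fold in a line was ATRX, lower by 1.51-fold in DAXX-KD NCI-H727-labelled cells. TRIM28 differed by -0.05 and 0.04 and SETDB1 by 0.06 and 0.07.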

How the data were processed

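Total RNA of 4 cell samples was measured on 1 one-colour Affymetrix array each. The deposited values are log2 expression; the submitters' processing notes name RMA, affy 1.40.0 and R 3.0.3. RMA quantile-normalizes arrays, so a shift shared by most genes would be removed, and it compresses differences near background. Groups came from sample titles. Of 54613 probe sets, 41091 had 1 symbol in the platform annotation and were used; 1801 with several and 11721 with none were left out. The filter was the 40th percentile of probe set means.

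Differences used 1 array per condition and have no replicate check; their number limits precision. The joint fit used limma 3.58.1 in R 4.3.3, with 1 residual and 4.18 prior degrees of freedom, Benjamini-Hochberg adjustment at 0.05, and was tested on simulated data. Start regions came from RefSeq and were aligned pairwise over their whole length. Named genes were those at least 2-fold between lines in both pairs, with the 5 highest means, with the 5 largest knockdown differences per line, ZNF91 and ZNF93, genes under the filter, and silencing genes that were called or past 1.5-fold. Members and lists were chosen with earlier results of these data known. Alternatives were no filter, mean of probe sets, no x or s suffix, a second quantile normalization, loess centring, an intensity trend, no line block, no treatment covariate and single pairs.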

Additional observations from a re-analysis of the deposited data

Results flagged for a closer look

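ZNF626 was picked out because its DAXX-KD minus control difference had opposite signs in the 2 lines, each larger than the SD between probe sets of a gene in that line. It differed by -0.38 in QGP1-labelled and 0.58 in NCI-H727-labelled cells, a gap of 0.96 that rests on 1 array per condition and was not tested. Both QGP1-labelled values, 4.45 and 4.07, lay under the filter level of 4.85. The other ZNF626 probe sets differed by -0.24 and -0.21 in QGP1-labelled and by -0.21 and -0.79 in NCI-H727-labelled cells, so the sign in NCI-H727-labelled cells depends on the probe set.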

How the results depend on the processing

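Between lines, the genes called higher in NCI-H727-labelled cells were 20 of 26 without a filter, 14 of 16 without x and s suffixes, 18 of 20 without the treatment covariate and 19 of 20 under the other settings that filter on the 4-array mean, with 0 lower, and 9 to 13 were at least 2-fold higher in both pairs. Over all genes, those called higher were 3478 of 19775 without a filter, 2440 of 11626 without x and s suffixes and 3415 of 14648 without the treatment covariate. The 19 called cluster genes kept direction and call in 126 refits and lost the call in 3: ZNF708 without a filter and without the treatment covariate, and ZNF93 without x and s suffixes (0.30). The line median ran from 1.001 to 1.33. The knockdown median kept its sign, from 0.0079 to 0.10 in QGP1-labelled and -0.21 to -0.07 in NCI-H727-labelled cells. The count past 1.5-fold went from 0 to 1 higher in each line without x and s suffixes (ZNF93), to 1 higher in NCI-H727-labelled with a second quantile normalization, and to 1 lower there without a filter or with the mean of probe sets. No alternative gave a knockdown call among the cluster or silencing genes. Silencing genes called higher went from 4 to 7 with loess centring. The causes were not tested. The knockdown fit was paired by cell line; without that block it also gave 0 calls. Dim genes were limited by background.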
